A study of Mus musculus with 26 samples.

Results

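A set of 9 cell-surface genes, out of 52636 genes listed for each library, was measured in mouse myeloid progenitors and in cultured mast cells. They are the 4 Fc gamma receptor genes Fcgr1, Fcgr2b, Fcgr3 and Fcgr4, and 5 genes of antigens used to tell progenitors apart, Cd34, Ly6a, Ly6c2, Slamf1 and Cd48. All 9 were taken by symbol and matched to 1 Ensembl gene each. The study asked what NSP4, a neutrophil serine protease encoded by Prss57, does in these cells, and RNA was sequenced from 26 libraries in 6 groups.

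The first 4 groups, of 4 libraries each, came from bone marrow of female mice, sequenced in 1 run: WT GMP, NSP4 KO GMP, WT CMP and NSP4 KO CMP, where GMP are granulocyte-macrophage progenitors and CMP common myeloid progenitors. The other 2 groups, of 5 libraries each, were WT BMMC-P3 and NSP4 KO BMMC-P3, bone marrow-derived mast cells from male mice, sequenced in another run. The knockout mice carried a germline deletion of exon 2 of Prss57, made in C57BL/6N embryonic stem cells, and wild-type littermates were the controls. According to the methods of the study, both progenitors were sorted as lineage-negative, SCA-1-negative, CD117-positive and CD34-positive cells, GMPs with high and CMPs with low staining for CD16/32. The mast cells were grown from sorted GMPs in IL-3 and stem cell factor, with no sort on the genes described here stated. The age of the mice used for RNA, and what P3 stands for, are not given in the sources used here. Cell type, sex and sequencing run change together between BMMC-P3 and the progenitors, so they cannot be told apart.

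Fc gamma receptors bind the constant part of IgG. Fcgr1, Fcgr3 and Fcgr4 encode activating receptors that signal through a shared adaptor chain encoded by Fcer1g, and Fcgr2b encodes the inhibitory receptor, which carries its own inhibitory motif. CD16 is the product of Fcgr3 and CD32 that of Fcgr2b, and the antibody used for CD16/32 recognises both. The study's gate used the level of its staining to divide GMPs from CMPs. SCA-1 is the product of Ly6a, Ly6c2 encodes Ly6C, a surface antigen of monocytes and granulocyte precursors, and Slamf1 (CD150) and Cd48 are members of the SLAM family that, with CD34, separate stem cells from more mature progenitors. The gate therefore used the protein of Fcgr3, Fcgr2b, Cd34 and Ly6a, and levels of these 4 genes between GMP and CMP check the sort rather than report a finding. The lineage cocktail also held an antibody to Gr-1, which binds Ly6G and can bind Ly6C, so Ly6c2 was in part gated on too.

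The 5 members on mouse chromosome 1 other than Cd34 lie close together (GRCm38). Fcgr2b spans 170958617 to 170976547 on the minus strand, Fcgr4 spans 171018920 to 171029761 on the plus strand, and Fcgr3 spans 171051174 to 171064935 on the minus strand. Cd48 (171682009 to 171705258) and Slamf1 (171767127 to 171801184) are both on the plus strand, 61.9 kb apart. Cd34 is farther along the same chromosome, from 194938819 to 194961279. Ly6a (74994877 to 74998031) and Ly6c2 (75108158 to 75111970) are 110.1 kb apart on the minus strand of chromosome 15, and Fcgr1 is on chromosome 3, from 96282909 to 96293969.

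Several members share sequence, which matters because only reads with 1 place in the genome were counted and a read was 50 bases long. Of the 50-base stretches in the annotated exons, 89.8% of those of Fcgr3 occurred in no other gene, 89.3% of those of Fcgr2b, 81.0% of those of Ly6a, 68.8% of those of Ly6c2 and 96.1% of those of Cd34, whereas those of Fcgr1, Fcgr4, Slamf1 and Cd48 were 100% their own. All 102 shared stretches of Cd34 were shared with Gm16897, which overlaps it on the opposite strand. Fcgr2b shared 166 with Fcgr3 and others with Gm38204, which overlaps it on the opposite strand. Sharing with an overlapping gene gives a read no second place in the genome. The percentages of Cd34 and Fcgr2b thus understate the stretches with 1 place. The longest likeness between members is coding exon 4 of Fcgr3 and of Fcgr2b, which has 255 bases in each and matches at 250 of them (98%), against 83.6% over the aligned coding sequences. The pair is printed here, 5′ to 3′ on the coding strand, because it is a part of both CD16/32 genes in which a short read cannot always be placed. It does not hold all the stretches that the 2 genes share. Capitals mark the 5 bases that differ. The Fcgr3 exon is chr1:171053939-171054193 and the Fcgr2b exon chr1:170966446-170966700, both on the minus strand of GRCm38.
Fcgr3: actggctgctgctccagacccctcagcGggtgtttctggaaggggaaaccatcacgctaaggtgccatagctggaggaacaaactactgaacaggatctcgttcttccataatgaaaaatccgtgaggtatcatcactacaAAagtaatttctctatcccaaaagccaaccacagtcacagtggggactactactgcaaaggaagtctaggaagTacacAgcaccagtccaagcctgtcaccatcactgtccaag
Fcgr2b: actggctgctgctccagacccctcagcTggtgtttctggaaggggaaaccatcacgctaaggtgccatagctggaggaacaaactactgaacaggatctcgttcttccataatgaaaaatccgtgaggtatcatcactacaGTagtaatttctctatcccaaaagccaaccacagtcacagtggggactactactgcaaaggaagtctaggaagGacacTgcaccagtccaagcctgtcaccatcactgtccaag

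Ly6c2 has such a partner outside the members. Its coding exon 3, chr15:75110511-75110627 on the minus strand, is identical over all 117 bases to exon 3 of Ly6c1. It is shown because reads that lie wholly inside it can be placed in neither gene. Ly6c2 shared 252 of its 50-base stretches with Ly6c1, more than this exon can hold. The level of Ly6c2 is thus read from the stretches that are its own.
Ly6c2 and Ly6c1: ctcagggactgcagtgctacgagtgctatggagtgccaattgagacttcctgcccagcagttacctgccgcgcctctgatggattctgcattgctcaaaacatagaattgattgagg

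Promoters are shown for the 3 members that were higher in GMP than CMP and hold one of 4 short motifs of blood cell transcription factors. A window from 250 bases before to 50 bases after the start was available for 8 of the 9 members in RefSeq (GRCm38.p6). The motifs, searched on both strands, were GAGGAAGT for PU.1, TTGCNNAA for C/EBP, AGATAA for GATA factors and TGTGGTT for RUNX, and they were found in 3.28%, 10.8%, 11.4% and 5.37% of 27025 promoters of the same length. Fcgr3 held a C/EBP match, Fcgr4 a PU.1 match, and Ly6c2 had 2 PU.1 matches and a RUNX match. No match overlapped another, and none of the 4 motifs was found in these windows of Cd34, Fcgr1, Fcgr2b, Slamf1 or Cd48. Matches are in capitals and may read on the opposite strand. They describe the letters and are not shown to be bound sites. The Fcgr3 window is chr1:171059354-171059653 (minus strand), at a RefSeq start that lies inside the longer gene span given above. The Fcgr4 window is chr1:171018676-171018975 (plus strand) and the Ly6c2 window chr15:75111922-75112221 (minus strand).
Fcgr3: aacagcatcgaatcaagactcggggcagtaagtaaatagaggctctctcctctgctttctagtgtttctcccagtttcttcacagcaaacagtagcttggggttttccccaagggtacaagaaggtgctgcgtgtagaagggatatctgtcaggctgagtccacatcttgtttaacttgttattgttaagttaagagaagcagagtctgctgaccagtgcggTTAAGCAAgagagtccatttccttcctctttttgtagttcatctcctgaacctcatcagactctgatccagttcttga
Fcgr4: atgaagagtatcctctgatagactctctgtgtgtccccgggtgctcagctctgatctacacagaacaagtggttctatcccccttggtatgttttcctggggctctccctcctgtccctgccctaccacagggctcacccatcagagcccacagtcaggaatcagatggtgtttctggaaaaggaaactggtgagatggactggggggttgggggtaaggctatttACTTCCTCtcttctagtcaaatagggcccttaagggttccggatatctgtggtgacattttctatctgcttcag
Ly6c2: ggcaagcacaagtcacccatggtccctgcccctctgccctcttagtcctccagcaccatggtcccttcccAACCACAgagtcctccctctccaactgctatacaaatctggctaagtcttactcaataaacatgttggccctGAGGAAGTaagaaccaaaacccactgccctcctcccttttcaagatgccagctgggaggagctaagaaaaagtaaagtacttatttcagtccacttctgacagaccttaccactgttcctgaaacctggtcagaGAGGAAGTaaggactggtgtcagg

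Depth was 32078404 to 53264762 reads on genes in the progenitor libraries and 18627626 to 28647216 in the BMMC-P3 libraries. Levels are given as nRPKM, the RPKM (a count scaled to gene length and depth) that the authors adjusted for a size factor of each library, so levels can be set side by side between genes. The knockout label held: Prss57 had 18064 to 26556 reads in WT GMP and 6 to 25 in NSP4 KO GMP, 2261 to 3926 in WT CMP and 1 in each NSP4 KO CMP library, and 2 to 27 in WT BMMC-P3 against 0 in NSP4 KO BMMC-P3. The summed level of 7 GMP markers was 26656 to 39895 nRPKM in GMP and 3979 to 10075 in CMP, while 8 erythroid markers summed to 31.9 to 74.2 in GMP and 682 to 1308 in CMP. The 9 mast cell markers summed to 25305 to 76155 nRPKM in BMMC-P3 and 186.9 to 742 in the progenitors. Some libraries stood apart. The summed nRPKM of all genes was 785333 in NSP4 KO CMP replicate 2, against 336085 to 494881 in the other progenitor libraries. Within GMP, it was 494554 in WT replicate 1 and 494881 in NSP4 KO replicate 4, against 366997 to 419160 in the other 6. NSP4 KO BMMC-P3 replicate 3 had 237 nRPKM of 10 monocyte and macrophage markers, against 1310 to 2053 in the other 9 BMMC-P3 libraries. In bulk RNA, fewer cells of a type and less RNA per cell cannot be told apart.

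**Figure D1:**
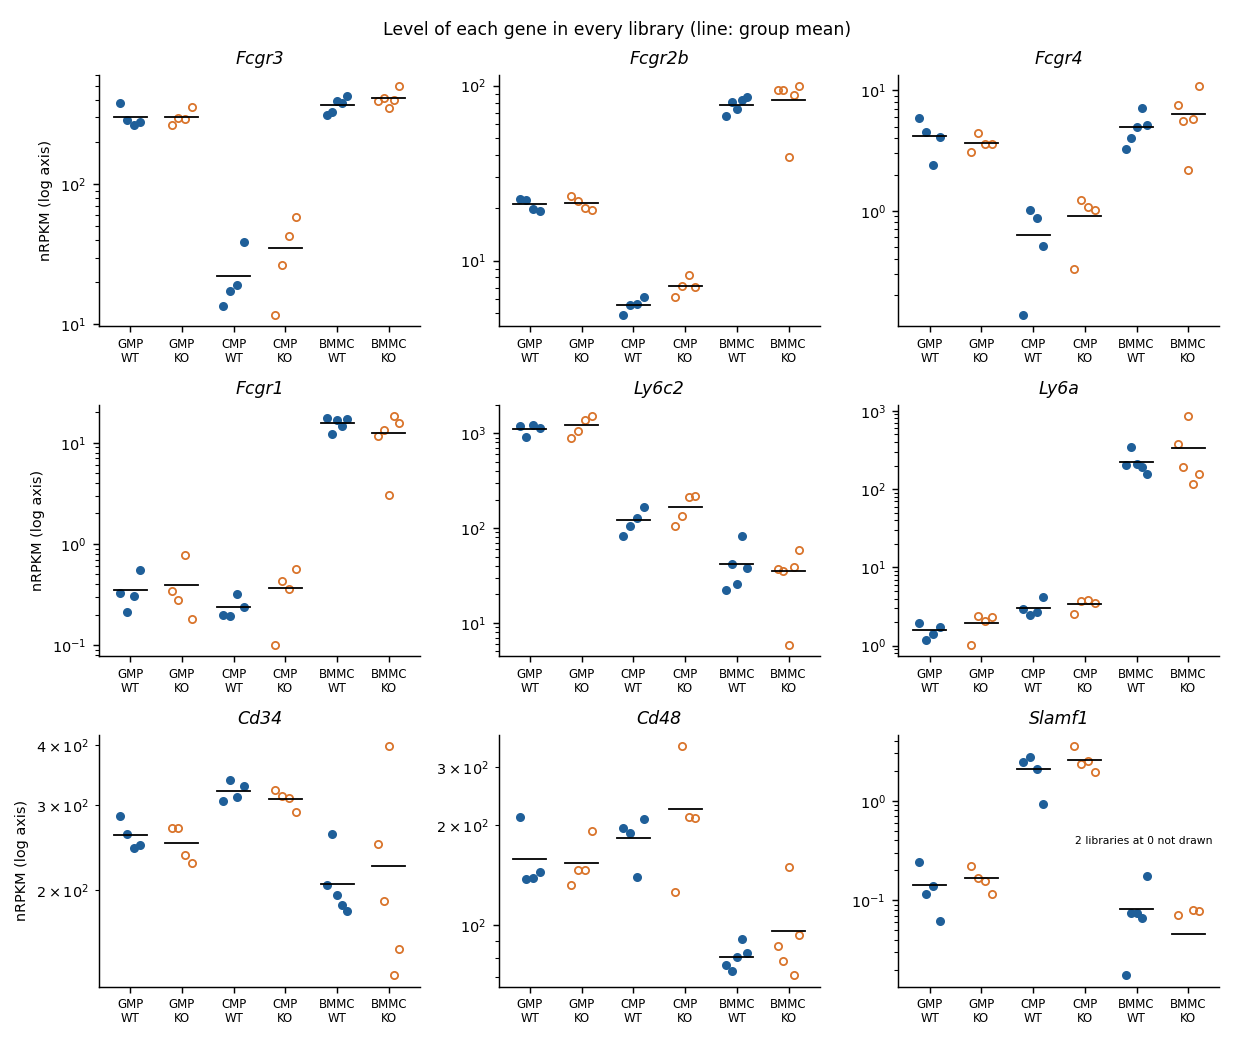
Level of each of the 9 genes in every library, in nRPKM on a log axis that differs between panels, with filled points for WT, open points for NSP4 KO and a line at the group mean. Fcgr3, Fcgr2b, Fcgr4 and Ly6c2 sit higher in all 8 GMP than in all 8 CMP libraries and Slamf1 lower, and Ly6a and Fcgr1 are highest in BMMC-P3.

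The first comparison sets GMP against CMP within each genotype. A gene was called changed at an adjusted p under 0.01 with a fold of at least 2, by the quasi-likelihood test of edgeR over all genes. In WT cells, 5 of the 9 members were called, 4 higher in GMP (Fcgr3, Fcgr2b, Fcgr4 and Ly6c2) and 1 lower (Slamf1), where 12.8% of the 14967 genes tested were called, 6.28% higher and 6.53% lower. In NSP4 KO cells the same 5 members were called in the same directions, where 8.42% of 14959 genes were called, 4.04% higher and 4.38% lower. The 2 comparisons share no library. All 9 members passed the filter on low counts in both.

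Fcgr3, the activating receptor CD16, had the largest fold of the receptor genes. Its level was 382, 288, 266 and 277 nRPKM in the 4 WT GMP libraries and 13.5, 17.3, 19.1 and 38.5 in WT CMP. In NSP4 KO cells it was 262, 294, 292 and 355 nRPKM in GMP and 11.7, 26.5, 43.0 and 58.8 in CMP. No CMP library reached any GMP library in either genotype, but the CMP libraries differed among themselves by up to several fold. The log2 fold change of GMP over CMP was 3.79 ± 0.32 (SE, adjusted p = 1.19e-05) in WT and 3.14 ± 0.44 (adjusted p = 0.00125) in NSP4 KO.

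Fcgr2b, the inhibitory receptor CD32, differed less and varied less. It was at 22.5, 22.3, 19.7 and 19.3 nRPKM in WT GMP and at 4.90, 5.59, 5.64 and 6.18 in WT CMP. In NSP4 KO cells it was at 23.3, 22, 20.0 and 19.5 nRPKM in GMP and at 6.15, 7.16, 8.24 and 7.09 in CMP. The groups were again apart, with log2 fold changes of 1.93 ± 0.12 in WT and 1.61 ± 0.15 in NSP4 KO. Both genes of the CD16/32 gate thus followed the sort in all 16 progenitor libraries.

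The mix of receptor transcripts differed with the progenitor. The ratio of Fcgr3 to Fcgr2b nRPKM was 14.4 ± 1.77 (SD, n = 4) in WT GMP and 14.4 ± 2.91 in NSP4 KO GMP, but 3.87 ± 1.60 in WT CMP and 4.78 ± 2.70 in NSP4 KO CMP. The lowest GMP ratio was 11.3 and the highest CMP ratio 8.30, so the libraries did not overlap. Fcgr3 made up 92.2% ± 0.65 of the summed nRPKM of the 4 receptor genes in WT GMP and 75.6% ± 6.18 in WT CMP. Fcgr2b made up 6.45% ± 0.70 and 21.2% ± 5.38. No test was run on these ratios, whose 2 genes are both gated on.

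**Figure D2:**
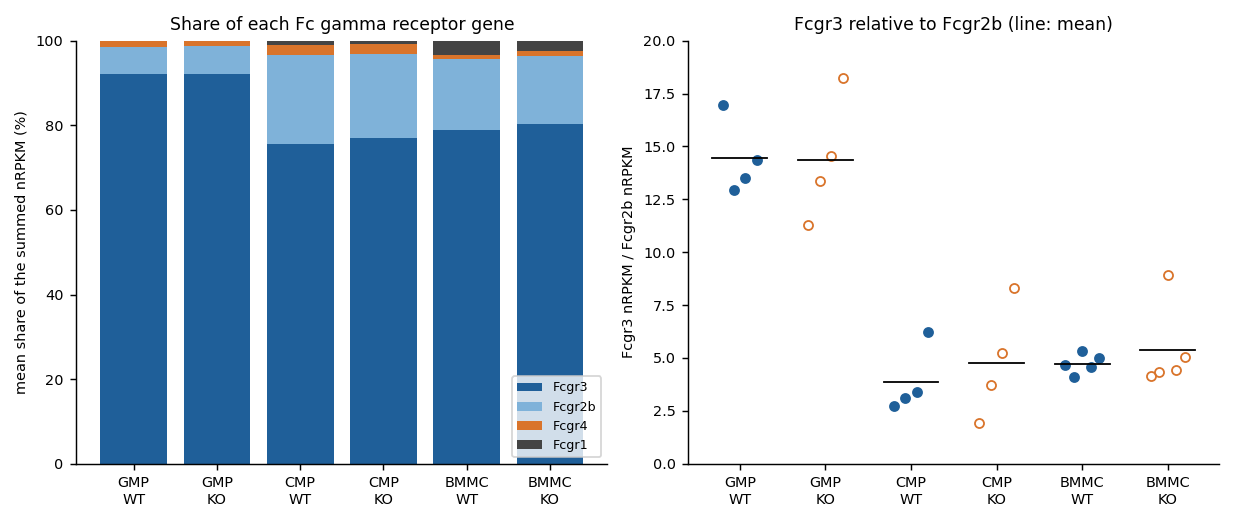
Left, mean share of each Fc gamma receptor gene in their summed nRPKM, in percent, for the 6 groups. Right, Fcgr3 nRPKM divided by Fcgr2b nRPKM in each library (filled, WT; open, NSP4 KO; line, mean). The ratio is 11.3 to 18.2 in GMP and 8.93 or lower in every CMP and BMMC-P3 library.

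Fcgr4, a second activating receptor best known on monocytes and neutrophils, was not part of the gate and was scarce. It was at 5.87, 4.48, 2.40 and 4.11 nRPKM in WT GMP and at 0.137, 1.02, 0.867 and 0.508 in WT CMP, where the lowest value rests on 8 reads. In NSP4 KO it was at 3.06, 4.40, 3.59 and 3.59 nRPKM in GMP and at 0.329, 1.22, 1.08 and 1.02 in CMP. GMP libraries were above CMP libraries throughout, with log2 fold changes of 2.73 ± 0.49 (adjusted p = 0.00183) in WT and 2.07 ± 0.38 (adjusted p = 0.00461) in NSP4 KO. The 9 late neutrophil markers were higher in GMP too, summing to 859 to 5287 nRPKM there and 17.1 to 87.7 in CMP. Ltf among them was under 1 in every CMP library. In WT GMP their sum was highest and lowest in the same libraries as Fcgr4, replicates 1 and 3. In NSP4 KO GMP the lowest sum was in replicate 2, where Fcgr4 was highest. The 10 monocyte and macrophage markers summed to 98.5 to 138.5 nRPKM in GMP and 53.1 to 78.9 in CMP. Of these, 3 were called higher and 3 lower in WT, and 1 and 0 in NSP4 KO. The 4 basophil markers summed to 1670.5 to 2532 nRPKM in GMP and 39.9 to 90.6 in CMP. The part of any of these lists in the members' values was not tested. The NSP4 KO call was lost on leaving out any 1 GMP library, or CMP replicate 3 or 4, with adjusted p from 0.0116 to 0.0173 and log2 fold changes from 1.97 to 2.19.

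Fcgr1, the high-affinity receptor of monocytes and macrophages, was at 0.101 to 0.772 nRPKM in the 16 progenitor libraries, on 17 to 99 reads each. Its log2 fold change of GMP over CMP was 0.56 ± 0.39 in WT and 0.18 ± 0.59 in NSP4 KO, with adjusted p = 0.265 and 0.836. In both genotypes the GMP and CMP libraries overlapped, and a difference was not detectable at this depth.

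Ly6c2 was the most abundant member in GMP. It was at 1192, 921, 1211 and 1124 nRPKM in WT GMP and at 82.2, 105, 128 and 169 in WT CMP. In NSP4 KO cells it was at 900.5, 1067, 1387 and 1516 nRPKM in GMP and at 106, 133, 212 and 216 in CMP. The lowest GMP library exceeded the highest CMP library in both genotypes, with log2 fold changes of 3.22 ± 0.22 (adjusted p = 3.40e-06) and 2.91 ± 0.30 (adjusted p = 0.000294). Its near copy Ly6c1 rose as well, by a log2 fold change of 3.35 ± 0.49 in WT, but from 4 to 14 reads per WT CMP library to 67 to 113 per WT GMP library.

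Slamf1 went the other way. It was at 0.244, 0.117, 0.139 and 0.0623 nRPKM in WT GMP, on 9 to 31 reads, and at 2.45, 2.77, 2.11 and 0.938 in WT CMP, on 103 to 384 reads. In NSP4 KO it was at 0.222, 0.169, 0.157 and 0.115 nRPKM in GMP and at 3.52, 2.33, 2.49 and 1.96 in CMP. Every GMP library was below every CMP library, and the log2 fold changes were -3.87 ± 0.45 (adjusted p = 0.000103) in WT and -3.90 ± 0.30 (adjusted p = 7.82e-05) in NSP4 KO. Even in CMP the level was low beside the other SLAM member, Cd48.

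Cd48, the ligand of CD244 and CD2 found on most blood cells past the stem cell stage, did not pass the test. Its level was 212, 138, 139 and 145 nRPKM in WT GMP and 197, 189, 139.7 and 209.6 in WT CMP, and in NSP4 KO it was 133, 147, 147 and 192 in GMP and 126, 346, 212 and 211 in CMP. The groups overlapped in both genotypes, with log2 fold changes of -0.20 ± 0.17 and -0.48 ± 0.27. The value of 346 was in NSP4 KO CMP replicate 2, the library with the highest summed nRPKM, and without it the NSP4 KO log2 fold change was -0.22.

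Cd34 and Ly6a, whose proteins were gated alike for both progenitors, differed by under 2-fold. Cd34, a sialomucin of early progenitors, was at 285, 261, 244 and 248 nRPKM in WT GMP and at 307, 338, 312 and 329 in WT CMP. It was thus lower in every WT GMP library, by a log2 fold change of -0.29 ± 0.10 (adjusted p = 0.0366), and likewise in NSP4 KO at -0.26 ± 0.15 (adjusted p = 0.200). Ly6a was at 1.97, 1.17, 1.42 and 1.73 nRPKM in WT GMP and at 2.95, 2.46, 2.66 and 4.18 in WT CMP, all low for a gene whose product was gated against. Its log2 fold change was -0.94 ± 0.25 (adjusted p = 0.0153) in WT and -0.76 ± 0.30 (adjusted p = 0.0966) in NSP4 KO, with no library of one group inside the other. Neither passed the threshold, although Ly6a in WT did so without WT GMP replicate 1, at -1.05 with adjusted p = 0.00870.

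**Figure D3:**
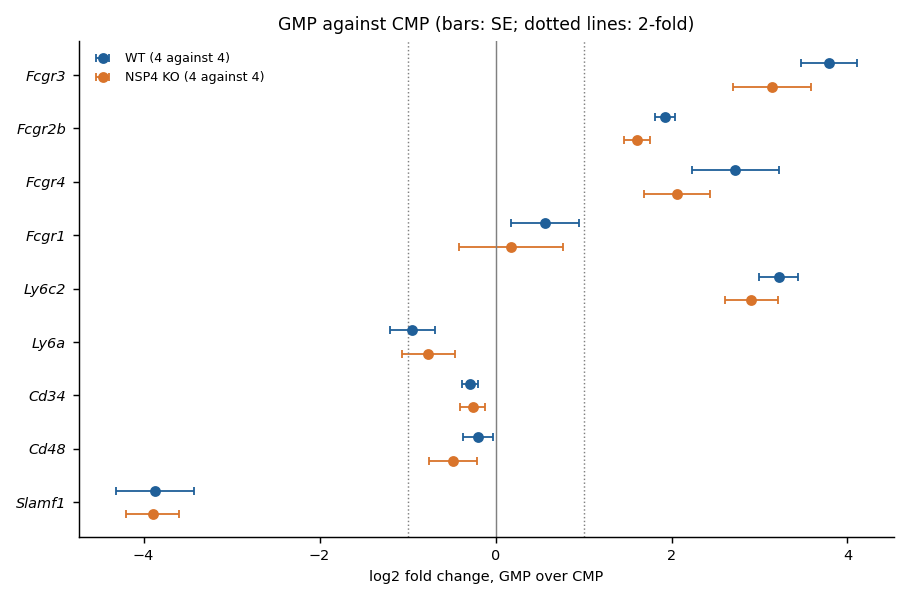
Log2 fold change of GMP over CMP for each gene (points) with its standard error (bars), in WT and in NSP4 KO cells, 4 libraries against 4. Fcgr3, Fcgr2b, Fcgr4 and Ly6c2 lie beyond the 2-fold line to the right and Slamf1 beyond it to the left in both genotypes, and the other 4 genes lie between the lines.

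An exact two-sided permutation test on nRPKM gave the smallest p that 4 against 4 libraries allow, 0.0286, for 7 of the 9 members in each genotype, all but Fcgr1 and Cd48. Those 7 are also the members whose GMP and CMP libraries did not overlap, as was so for 31.5% of genes tested in WT and 28.5% in NSP4 KO. The median log2 fold change of the 9 members was 0.56 in WT and 0.18 in NSP4 KO, beside -0.02 and -0.03 over all genes tested. The counts and medians here include Fcgr3, Fcgr2b, Cd34 and Ly6a of the gate, and Ly6c2, gated on in part. They are descriptions and no finding about the set.

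Other genes of the same families and pathways were counted in lists without the members. Of 19 tested genes of Fc receptor signalling, 5 were called higher and 1 lower in GMP than CMP in each genotype, with median log2 fold changes of 0.54 in WT and 0.64 in NSP4 KO. The genes with the largest folds were those of the high-affinity IgE receptor, Fcer1a (3.89 ± 0.32 on the log2 scale in WT) and its beta chain Ms4a2 (2.44 ± 0.17), and, in the other direction, the adaptor Lat (-2.43 ± 0.14). Fcer1g, the chain shared with the activating Fc gamma receptors and named here for that role rather than its values, was at 160 ± 15.1 nRPKM in WT GMP and 88.7 ± 10.6 in WT CMP, a log2 fold change of 0.87 ± 0.12 that falls short of 2-fold. Of 17 tested surface genes of progenitor subsets, 3 were called higher and 9 lower in WT GMP, and 2 and 7 in NSP4 KO. Among those lower in both genotypes were the erythropoietin receptor Epor (-4.23 ± 0.24 on the log2 scale in WT) and the adhesion molecule Esam (-4.20 ± 0.21).

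Among the other genes of the gate, 2 of 6 tested were called higher in WT GMP and 1 in NSP4 KO. The one called in both was Itgam, which encodes CD11b of the lineage cocktail, at 1.87 ± 0.29 nRPKM in WT GMP and 0.539 ± 0.115 in WT CMP. Kit, which encodes CD117, was at 52.4 ± 8.14 and 57.4 ± 8.47 nRPKM and was not called. Of 6 other tested Ly6 genes, 3 were called higher in WT GMP and 1, Ly6c1, in NSP4 KO. Of the other SLAM genes and their adaptors, 1 of 7 tested was called higher in WT GMP and 0 of 8 in NSP4 KO. The median log2 fold changes of that list were -0.02 and 0.34.

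Over the 16 progenitor libraries, the genes with the pattern most like each member were found by the Pearson correlation of log2 CPM, counts scaled to library size, among 15900 genes. For members that differ between GMP and CMP, these values mostly restate that difference. All of them are descriptions. Fcgr3 was closest to Pglyrp1 (r = 0.995) and Chst13 (0.994), Fcgr2b to Igsf6 (0.994) and Idh1 (0.993), Ly6c2 to Gpx3 (0.994) and Edem2 (0.994), and Fcgr4 to Il5ra (0.957) and Nebl (0.950). Slamf1 was closest to Tmem246 (0.975) and Gja1 (0.974), Cd34 to Scml4 (0.955) and Prokr1 (0.942), and Ly6a to Gm9888 (0.911) and Mageh1 (0.910). The WT means of Il5ra, Nebl, Scml4 and Prokr1 were at most 0.61 nRPKM in both progenitors. Cd48, which did not separate the progenitors, was closest to Rab9 (0.991) and Cox7a2 (0.990). Its highest progenitor value was in NSP4 KO CMP replicate 2, the library with the highest summed nRPKM. Within GMP its highest values were in WT replicate 1 and NSP4 KO replicate 4, also high in that sum. The part of these libraries in its values was not tested. Fcgr1, the scarcest of the receptors, had no gene above 0.757, the value of Rbm12b1, followed by Map2k6 (0.733).

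Within a cell type, Fcgr3 was set against each of the other 8 members over the 8 libraries of both genotypes, as log2(nRPKM + 1), which gave 16 relations. Of these, 2 passed an adjusted p of 0.05. In CMP, Fcgr3 rose with Ly6c2 (Pearson r = 0.947, exact permutation p = 0.000893, adjusted 0.0111; Spearman rho = 0.929, exact permutation p = 0.00223, adjusted 0.0357). The value was 0.948 with each genotype centred on its mean and 0.888 without the 2 libraries farthest from the median Fcgr3, NSP4 KO CMP replicates 3 and 4. The summed GMP markers moved with both: they were 3979, 5577, 5865 and 8424 nRPKM in WT CMP replicates 1 to 4 and 4914, 8176, 8339 and 10075 in NSP4 KO CMP, close to the order of Fcgr3, and their part in the result was not tested.

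In GMP, Fcgr3 rose with Cd48 (Pearson r = 0.980, exact permutation p = 0.00139, adjusted 0.0111; Spearman rho = 0.905, exact permutation p = 0.00456, adjusted 0.0365). The value was 0.981 with genotypes centred and 0.760 without WT GMP replicate 1 and NSP4 KO GMP replicate 4. Those 2 libraries were also the highest of the 8 in the summed nRPKM of all genes, as given above. They had the highest sums of late neutrophil markers, 3376 and 5287 nRPKM against 859 to 2468 in the other 6, and of GMP markers, 39895 and 37580 against 26656 to 32070. The part of these in the result was not tested. In GMP, Fcgr3 and Fcgr2b, the 2 genes of one staining, had r = 0.040 (exact permutation p = 0.891). In CMP the same 2 genes had r = 0.727 (exact permutation p = 0.0447, adjusted 0.143). That value was 0.791 with genotypes centred and 0.522 without NSP4 KO CMP replicates 3 and 4.

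The second question was whether loss of NSP4 changed any of these genes. In GMP, no member was called, where 0.00681% of 14689 genes were called. In CMP no member was called, where 0.00670% of 14916 genes were called, and in BMMC-P3 none was, where 0% of 13938 genes were called. The edgeR counts of members at an unadjusted p under 0.05 were 0 of 9, 0 of 9 and 0 of 8, where 0.81%, 0.51% and 2.38% of genes had one, and limma voom and DESeq2 called 0 members as well. The adjusted p was 1.00 for each member tested in each cell type, and Slamf1 was not tested in BMMC-P3. The WT and NSP4 KO libraries overlapped for all 9 members in all 3 cell types, where 0.994%, 0.818% and 0.717% of genes tested did not overlap.

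In GMP, the members were close between genotypes. Fcgr3 was at 303 ± 53.2 nRPKM (SD, n = 4) in WT and 301 ± 38.8 in NSP4 KO, Fcgr2b at 21.0 ± 1.67 and 21.2 ± 1.75, Ly6c2 at 1112 ± 133 and 1218 ± 283, and Cd34 at 259.6 ± 18.1 and 250.4 ± 21.5. The log2 fold changes ran from -0.20 ± 0.25 for Fcgr4 to 0.31 ± 0.30 for Ly6a. The standard errors of Cd34 (0.09) and Fcgr2b (0.10) were the smallest, and those of Fcgr1 (0.47) and Slamf1 (0.46), both on few reads, the widest.

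In CMP, the log2 fold changes ran upward from -0.07 ± 0.16 for Cd34, none past the test. Their median was 0.34, beside 0.03 over all genes tested. Scaled by library size alone, the median over all genes was -0.05. Fcgr3 had the largest, 0.64 ± 0.48, from 22.1 ± 11.2 nRPKM in WT to 35.0 ± 20.4 in NSP4 KO. Fcgr2b had the smallest p, 0.34 ± 0.16 on the log2 scale with an unadjusted p of 0.0542. Its nRPKM was 5.58 ± 0.53 in WT and 7.16 ± 0.86 in NSP4 KO, with the lowest NSP4 KO library, 6.15, just under the highest WT library, 6.18. The exact permutation test gave p = 0.0571 on nRPKM and 0.0286 on log2(CPM + 1), the smallest that 4 against 4 libraries can give. Ly6c2 was at 121 ± 36.9 and 167 ± 55.6 nRPKM (0.44 ± 0.29). The GMP marker sum had a median of 5721 in WT CMP and 8257 in NSP4 KO CMP, with overlapping libraries, and its part in these values was not tested. The difference of the genotype effects between GMP and CMP was called for 0 members, where 0% of 15900 genes were called, with 0 members at an unadjusted p under 0.05 (1.06% of genes) and 0 by limma voom and DESeq2. The nearest was Fcgr2b (-0.33 ± 0.17, unadjusted p = 0.0653).

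**Figure D4:**
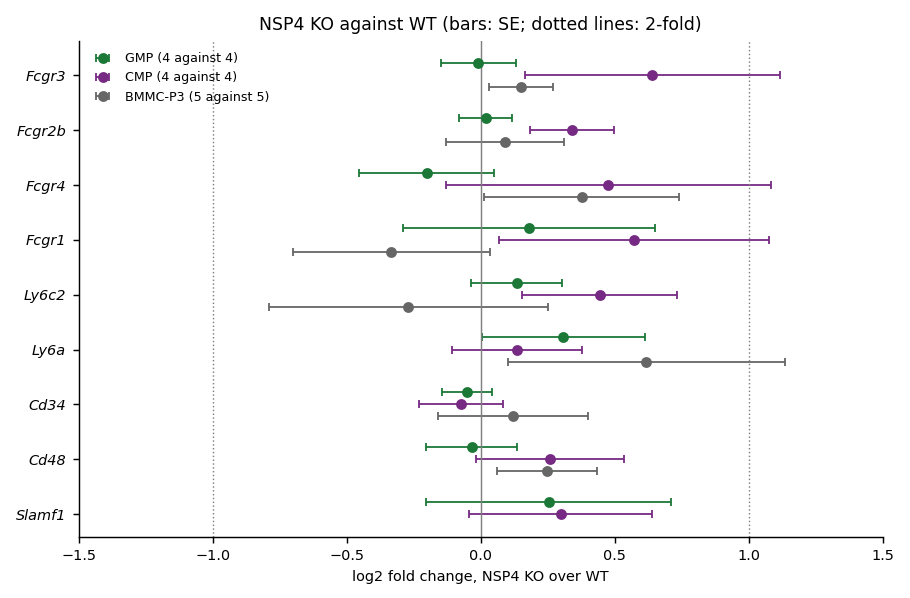
Log2 fold change of NSP4 KO over WT for each gene (points) with its standard error (bars) in GMP, CMP and BMMC-P3. All points lie within the 2-fold lines, the widest bars belong to Fcgr4 and Fcgr1 in CMP and to Ly6a and Ly6c2 in BMMC-P3, and Slamf1 has no BMMC-P3 value because it did not pass the filter on low counts.

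In BMMC-P3, 8 members passed the filter and 1 NSP4 KO library stood apart for most of them. Ly6a was at 204, 342, 212, 191 and 155 nRPKM in WT and at 379, 190.2, 857, 115 and 154 in NSP4 KO, where 857 is replicate 3. Cd34 was at 205, 262, 195, 186 and 180.2 nRPKM in WT and at 249, 189, 398, 133 and 151 in NSP4 KO. Replicate 3 was thus highest of the 10 libraries for both progenitor antigens. It was also highest for Cd48, at 150.3 nRPKM against 70.9 to 93.9 in the other 9.

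Fcgr1, Fcgr2b, Fcgr4 and Ly6c2 were low in that library, and Fcgr3 was not. Fcgr1 was at 17.5, 12.1, 16.7, 14.5 and 17.3 nRPKM in WT and at 11.8, 13.4, 3.02, 18.3 and 15.6 in NSP4 KO. Fcgr2b was at 66.7, 80.2, 73.4, 83 and 86 nRPKM in WT and at 94.5, 94.4, 39.0, 89.0 and 99.6 in NSP4 KO. Replicate 3 was the lowest of the 10 for both, and for Ly6c2 it had 5.86 nRPKM against 22.3 to 83.3 in the others. For Fcgr4 it had 2.19 nRPKM, the lowest of the 10, against 3.25 to 7.21 in WT. For Fcgr3 it had 348, within the 310.3 to 502 of the others.

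Markers of other cell types moved with these values in that library. The 10 monocyte and macrophage markers summed to 237 nRPKM there and to 1310 to 2053 in the other 9 libraries, none of the 10 staying under 1 nRPKM in every library of either group. The 8 dendritic cell markers summed to 71.5 against 829 to 1791, with Siglech, Xcr1 and Zbtb46 under 1 in every BMMC-P3 library. The 9 mast cell markers summed to 76155 against 25305 to 46885. The part of these cell types in the members' values was not tested. Without replicate 3, the log2 fold change of NSP4 KO over WT went from 0.62 to -0.08 for Ly6a and from 0.12 to -0.19 for Cd34. It went from 0.25 to 0.03 for Cd48, from -0.33 to -0.08 for Fcgr1 and from -0.27 to 0.00273 for Ly6c2. For the other receptors it grew, from 0.09 to 0.27 for Fcgr2b, from 0.15 to 0.20 for Fcgr3 and from 0.38 to 0.59 for Fcgr4. None was called, and Fcgr2b had an adjusted p of 0.525 by edgeR.

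**Figure D5:**
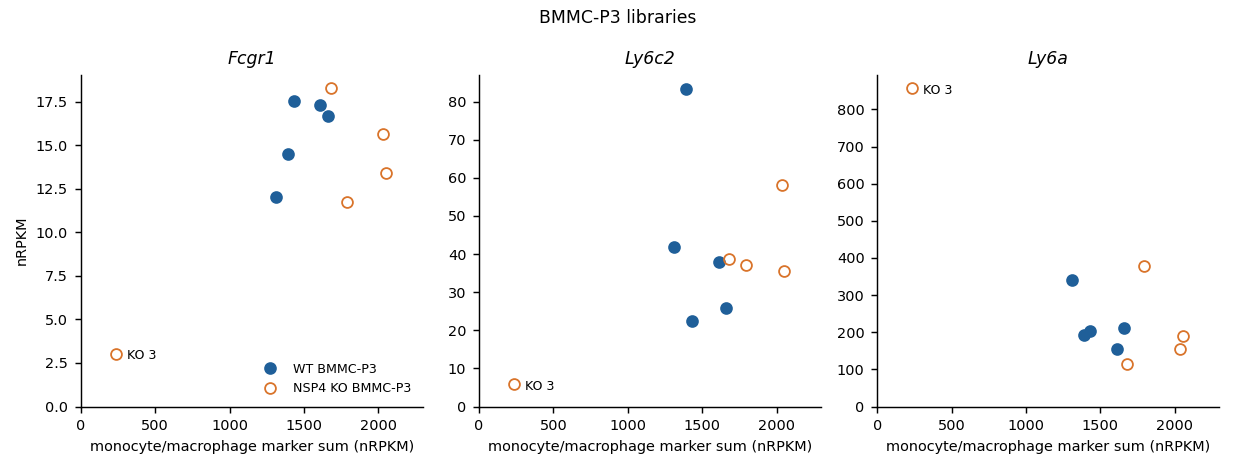
Fcgr1, Ly6c2 and Ly6a (nRPKM) in each of the 10 BMMC-P3 libraries against the summed nRPKM of 10 monocyte and macrophage markers in the same library (filled, WT; open, NSP4 KO). NSP4 KO replicate 3, marked KO 3, has the lowest marker sum (237), the lowest Fcgr1 and Ly6c2 and the highest Ly6a.

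The third comparison sets WT BMMC-P3 against WT GMP, the cell type they were grown from, across the change of sex and run. The sequenced GMPs came from other mice than the mast cells, so the values do not follow the same cells over time. Of the 8 members that passed the filter, 5 were called, 3 higher and 2 lower in BMMC-P3, where 51.7% of 14754 genes were called, 27.3% higher and 24.4% lower. The share of members called, 5 of 8, can be read only against that background. Ly6a rose the most, to 221 ± 70.9 nRPKM (SD, n = 5) from 1.57 ± 0.35 (n = 4), a log2 fold change of 7.05 ± 0.29. GMPs were sorted as SCA-1-negative, and no such sort is stated for the cultured cells. The part of this gate in the difference was not tested.

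Of the Fc gamma receptors, 2 were called higher and 2 were not called. Fcgr1 went from 0.348 ± 0.143 nRPKM in GMP to 15.6 ± 2.32 in BMMC-P3 (log2 fold change 5.40 ± 0.25), and inhibitory Fcgr2b from 21.0 ± 1.67 to 77.9 ± 7.79 (1.80 ± 0.10). Fcgr3 was at 303 ± 53.2 and 367 ± 47.9 nRPKM (0.18 ± 0.13, adjusted p = 0.223) and Fcgr4 at 4.22 ± 1.43 and 4.93 ± 1.49 (0.13 ± 0.27, adjusted p = 0.661), with overlapping libraries. The ratio of Fcgr3 to Fcgr2b was 4.72 ± 0.46 in WT BMMC-P3, below every WT GMP library. The monocyte and macrophage markers summed to 98.5 to 114 nRPKM in WT GMP and 1310 to 1662 in WT BMMC-P3, and their part was not tested.

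Ly6c2 fell from 1112 ± 133 nRPKM in GMP to 42.3 ± 24.3 in BMMC-P3 (-4.81 ± 0.34), and Cd48 from 158 ± 36.0 to 80.6 ± 7.00 (-1.07 ± 0.14). The Cd48 call was lost without WT GMP replicate 1, where its fold fell under 2 at a log2 fold change of -0.89. Cd34 stayed under the fold limit at 259.6 ± 18.1 and 205 ± 32.8 nRPKM (-0.43 ± 0.12, adjusted p = 0.00463). Slamf1 had 1 to 11 reads per WT BMMC-P3 library and 0 to 6 in NSP4 KO. A count of 3 reads or fewer, taken as the floor, was met in 1 WT and 2 NSP4 KO libraries, and no fold is given. The exact permutation test gave p = 0.0159, the smallest that 5 against 4 libraries allow, for the 5 called members, whose groups did not overlap, as was so for 75.3% of genes tested. In the lists without members, 13 of 19 tested genes of Fc receptor signalling were called higher and 0 lower in BMMC-P3, with a median log2 fold change of 1.67 beside 0.00 over all genes.

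The order of the group means can be read from the same values. Fcgr2b fell into 3 levels that did not overlap, both BMMC-P3 groups above both GMP groups above both CMP groups. For Fcgr3 and Fcgr4 the BMMC-P3 and GMP groups overlapped, and only CMP stood below. Ly6a ran from BMMC-P3 through CMP to GMP in 3 levels, and Fcgr1 in 2, BMMC-P3 above all 4 progenitor groups. For Ly6c2 GMP stood above CMP, whose NSP4 KO and WT groups overlapped each other, and the lowest WT CMP library overlapped the highest BMMC-P3 library. Slamf1 was highest in CMP, with GMP and BMMC-P3 overlapping below it. The mean of Cd34 was highest in CMP, whose libraries lay above all GMP libraries of the same genotype, but NSP4 KO BMMC-P3, at 133 to 398 nRPKM, overlapped every other group. For Cd48 every pair of neighbouring groups overlapped.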

How the data were processed

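Reads were single-end, 50 bases long, from stranded total RNA libraries. According to the methods of the study the authors filtered and aligned them with HTSeqGenie and GSNAP to GRCm38 and counted uniquely placed reads within exons. The strand setting of the counting and the annotation release are not given in the sources used here. The deposited values were raw counts per gene and RPKM adjusted by the authors with a size factor per library (nRPKM). Depth was 18627626 to 53264762 reads on genes, and floors cover counting error only. No 2 replicates agreed within counting noise (lowest chi-square over degrees of freedom 8.95 among 44 pairs).

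Counts were tested with edgeR 4.0.16 (TMM, filterByExpr, robust quasi-likelihood test, Benjamini-Hochberg adjustment over all genes tested), only the libraries compared entering each fit. Limma 3.58.1 (voom), as in the study, and DESeq2 1.42.0 were alternatives. Scripts were tested on simulated data. Single genes were also tested on nRPKM by two-sided exact permutation (scipy 1.17.1). The named genes were the 9 members, Prss57, up to 3 genes per family list called in both GMP against CMP comparisons with the largest folds, and the 2 genes most like each member. A single result that this rule names is not reported here. The members and lists were chosen with earlier results of these data known. Marker lists that are not described were used for no result. Replicates came from separate samples by their labels, and the study gives them as biological replicates for GMP and BMMC. Whether same-numbered libraries came from the same mice is not given in the sources used here, and they were tested unpaired. In GMP against CMP, deviations from the group means correlated between same-numbered libraries by 0.13 on average in WT and 0.18 in NSP4 KO. Other pairs had -0.05 and -0.06, which is no separate measure because deviations sum to 0 within a group. Same-numbered libraries of WT and NSP4 KO in CMP had 0.16 on average. The lowest same-numbered value, -0.31, was between WT and NSP4 KO in GMP, and the highest, 0.53, between GMP and CMP in NSP4 KO. Tested alternatives are given under the dependence on processing.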

Additional observations from a re-analysis of the deposited data

Results flagged for a closer look

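In 3 of 54 groups of 4 or 5 libraries, 1 library lay farther from the rest than Dixon's test allows, and about 1 in 20 groups do so by chance. Cd48 was at 212 nRPKM in WT GMP replicate 1 against 138 to 145 in the other 3 libraries. Cd48 was at 150.3 nRPKM in NSP4 KO BMMC-P3 replicate 3 against 70.9 to 93.9 in the other 4, at the limit of the test. Fcgr2b was at 39.0 nRPKM in that same BMMC-P3 library against 89.0 to 99.6 in the other 4. No member had a genotype effect that differed between GMP and CMP by the test of the difference.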

How the results depend on the processing

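The members called in GMP against CMP in WT numbered 5 to 7 over all alternatives, in NSP4 KO 4 to 5 and in BMMC-P3 against GMP 4 to 6, and 0 were called in the genotype comparisons under any. All genes called in GMP against CMP in NSP4 KO moved from 1259 to 2156 with DESeq2, to 2307 with all 26 libraries in 1 fit and to between 785 and 2266 on leaving out 1 library. With DESeq2, 2 genes were called for NSP4 KO against WT in GMP and 3 in CMP, from 1 each, and 2 in GMP without WT GMP replicate 1 (leave-one-out range 1 to 2). Scaling by library size alone moved the median log2 fold change of all genes in WT from -0.02 to -0.16 (GMP against CMP) and from 0.00 to -0.19 (BMMC-P3 against GMP), and the genes called higher and lower went from 940 and 978 to 764 and 1228, from 604 and 655 to 408 and 701 (NSP4 KO), and from 4027 and 3603 to 3636 and 4231. Under it, Ly6a in WT was called (-1.08), and Fcgr3 and Fcgr4 in BMMC-P3 against GMP turned to -0.0011 and -0.054. With log2(CPM + 1), the exact permutation p went to 0.0286 for Fcgr2b (NSP4 KO against WT, CMP) and 0.0159 for Cd34 (BMMC-P3 against GMP), and no other crossed 0.05. Of the log2 fold changes that were not called, these changed sign on leaving out 1 library and then ran as follows. For NSP4 KO against WT they ran in GMP from -0.096 to 0.12 (Fcgr3), -0.38 to 0.00025 (Fcgr4), -0.15 to 0.14 (Cd48), -0.016 to 0.059 (Fcgr2b) and -0.37 to 0.50 (Fcgr1), in CMP from -0.022 to 0.43 (Cd48), and in BMMC-P3 from -0.53 to 0.13 (Ly6c2), -0.19 to 0.26 (Cd34) and -0.081 to 0.84 (Ly6a). Fcgr1 ran from -0.39 to 0.50 in GMP against CMP in NSP4 KO, and Fcgr4 from -0.065 to 0.33 in BMMC-P3 against GMP. The difference of genotype effects ran from -0.27 to 0.35 for Slamf1 (0.029 with voom and 0.060 by library size), -0.018 to 0.076 for Cd34 and -0.0084 to 0.40 for Ly6a. The cause was not tested. Whether the replicate numbers pair the samples is not given in the sources used here. With a replicate block, the members called stayed at 5, 5 and 5, with 0 in the genotype comparisons. Slamf1 in BMMC-P3 and Fcgr1 and Fcgr4 in CMP rest on few reads, which limits what could be detected.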
